A study of Mus musculus with 15 samples.

Results

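Whether Rb loss did the same to the transcripts of p53-deleted mammary cells with and without added MYC was read from a difference of differences. For each gene, the log2 change of p53- Rb- Myc+ over p53- Myc+ arrays was taken first, then the change of p53- Rb- over p53- arrays, and this second change was subtracted. This interaction is positive where the Rb change was more upward with MYC than without it. It used 12 of the study's 15 arrays, picked by their group labels and by no measured value. The cells were cultures of mammary epithelium from 8-week-old female mice, harvested while proliferating, and RNA of each sample went onto 1 Affymetrix Mouse Gene array. Cre recombinase delivered by an adenovirus removed the targeted genes, and a retrovirus delivered MYC. p53- Rb- Myc+ cells lacked p53 and Rb and carried the retrovirus, and p53- Myc+ cells lacked p53 and carried it. p53- Rb- cells lacked p53 and Rb and p53- cells lacked p53, both without the retrovirus. All 4 groups of the contrast thus share p53 deletion, and wild type (WT) cells, the remaining 3 arrays, enter no Rb change: they were used for the estimate of spread, for the choice of probe set and for a comparison of levels given with the results. The labels name no control virus and leave unsaid whether replicates came from different mice or dishes. The p-values therefore speak to the scatter of these samples alone, which may be technical. The values are intensities per probe set, a linear measure of hybridised RNA, and each gene was represented by 1 probe set, which left 19938 genes.

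The retinoblastoma protein Rb holds E2F transcription factors inactive until cyclin-dependent kinases phosphorylate it, so that its loss frees genes of S phase. MYC is a transcription factor that drives ribosome production, metabolism and cell division, and many of its targets are also E2F targets. In breast cancer, loss of the RB pathway and MYC overexpression are both known in aggressive tumours.

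The labels were checked first on Rb1, which encodes Rb, on Myc and on cell type markers. Rb1 had intensities of 19.98, 18.3 and 17.9 in p53- Rb- Myc+ arrays, against 48.04, 26.8 and 34.5 in p53- Myc+ arrays. The arm without the label gave 52.7, 55.3 and 64.2 in p53- Rb- arrays, against 147, 181 and 157 in p53- arrays. Rb1 was lower with the Rb- label in both arms without overlap, and it was also low in p53- Myc+ arrays, which do not carry the Rb- label. Its change was -0.57 ± 0.16 (log2 ± SE) with the Myc+ label and -1.27 ± 0.16 without it, and the interaction was 0.70 ± 0.23 (adjusted p = 0.0484). That last call ended in 18 alternative analyses and held in 8, with adjusted p up to 0.194. Myc, measured by the mouse probe set, had 87.1, 93.5 and 108 in p53- Rb- Myc+ arrays, against 114, 108 and 162 in p53- Myc+ arrays. In the other arm Myc had 811, 779 and 978 in p53- Rb- arrays, against 841, 1046 and 902 in p53- arrays. Myc was thus lower, not higher, in every array labelled Myc+, so Myc+ is used below as a label, and which parts of Rb1 and Myc the probes cover is not given in the sources used here. Myc itself showed no interaction that passed (-0.23 ± 0.24, adjusted p = 0.565).

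The 10 markers of mammary epithelium reached summed intensities of 624 to 730 in p53- Rb- Myc+ and 173 to 247 in p53- Myc+ arrays. Without the Myc+ label the same sum was 21410 to 23820 in p53- Rb- and 21170 to 23380 in p53- arrays. Of the sums with the label, the keratin Krt19 alone had a mean of 489 in p53- Rb- Myc+ and 75.3 in p53- Myc+ arrays. In these groups 5 and 7 of the 10 markers averaged 16 or less. The epithelial adhesion molecule Epcam, the basal keratin Krt5 and the tight junction claudins Cldn3 and Cldn4 averaged 16 or less in both groups labelled Myc+, so the labelled cell type is not borne out by its defining markers there. The 14 fibroblast markers were lower with the Rb- label in the arm labelled Myc+ and higher with it in the other arm, by their sum. Their sum was 3986 to 4996 in p53- Rb- Myc+ against 6531 to 7690 in p53- Myc+ arrays, and 7307 to 9256 in p53- Rb- against 4174 to 4447 in p53- arrays. Endothelial markers summed to 372 to 429 in p53- Rb- Myc+ against 352 to 444 in p53- Myc+ arrays, and 841 to 901 in p53- Rb- against 639 to 707 in p53- arrays. In such bulk samples, fewer cells of a type and less RNA per cell cannot be told apart. Array medians ran from 41.28 to 54.9, and arrays of a group correlated at r = 0.963 to 0.989 across genes. Precision is set by having 3 arrays in each group.

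The interaction passed for 2719 genes, 13.6% of the 19938 tested (limma, Benjamini-Hochberg adjusted p under 0.05). It was positive for 1751 genes (8.78%) and negative for 968 (4.86%), and 963 of the positive and 525 of the negative ones were at least 2-fold. At an unadjusted p under 0.05 there were 5613. Positive calls made up 64.4% of all calls on the intensities as deposited, but 45.1% after arrays were centred on their medians, 53.7% after quantile normalization and 56.1% with 64 in place of 16 added before the log. The median interaction over all genes was 0.132, and -0.00318 after centring, so the balance of signs is not interpreted and lists of genes are given relative to that median. The Rb change passed for 935 genes (4.69%) with the Myc+ label, 656 higher (3.29%) and 279 lower (1.4%), and for 3950 (19.8%) without it, 1867 higher (9.36%) and 2083 lower (10.4%). The weakest call inside the threshold was Pgpep1 (-0.764, adjusted p = 0.04998), and the strongest outside was Dusp4 (0.74, adjusted p = 0.0501). Of the 2719 genes, 1481 also passed in every fit that left out 1 of the 12 arrays.

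The 2719 genes were sorted by the calls in both arms. The most common form was a change in a single arm, with 2120 genes or 78% of the calls. Of these, 369 (13.6% of all calls) changed with Rb only with the Myc+ label, where 258 rose and 111 fell, and 1751 (64.4%) changed only without it, where 626 rose and 1125 fell. "Only" here means that the other arm missed the threshold while the difference between arms passed. The 95% interval of the other arm lay inside a 2-fold change either way for 362 of the 369 and 1699 of the 1751. In 147 genes (5.41%) both arms passed with opposite signs, 52 rising and 95 falling with the Myc+ label. In 34 genes both arms passed in the same direction, 28 with the larger change with the Myc+ label and 6 with the smaller. In 418 genes (15.4%) neither arm passed by itself, and of these 50 kept the interaction call in every fit without 1 array, against 147 of the 147 opposite genes. The opposite form by its definition holds larger interactions, with a median size of 1.82 against 0.865 (log2). The 2 counts therefore follow largely from how the forms are defined. A further 141 genes were additive on the log2 scale: both arms passed in the same direction (122 up, 19 down), the interaction did not, and its 95% interval lay inside a 2-fold difference. The scatter of both Rb changes shows these forms as regions around the axes and the diagonal.

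**Figure D1:**
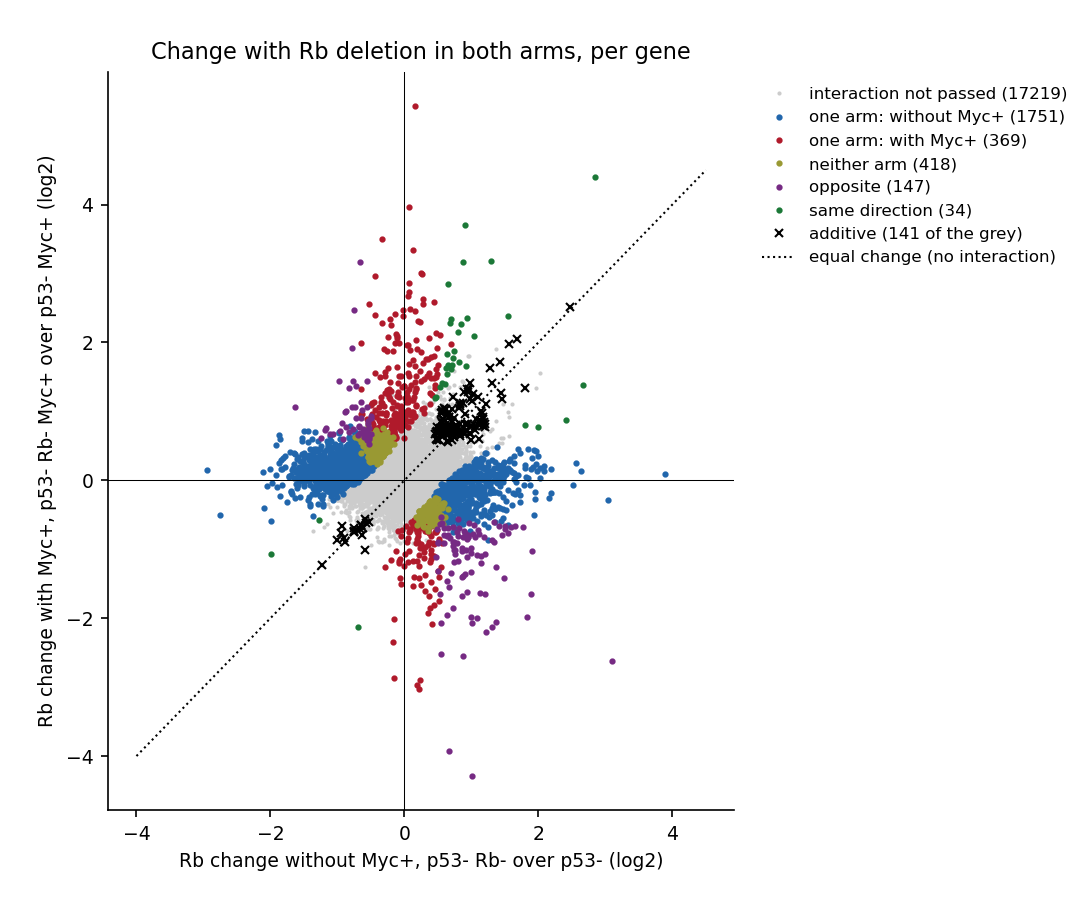
Log2 Rb change of each of 19938 genes with the Myc+ label (p53- Rb- Myc+ over p53- Myc+, vertical) against the change without it (p53- Rb- over p53-, horizontal), coloured by form. The 369 genes of the form with Myc+ stretch along the vertical axis, the 1751 without Myc+ along the horizontal axis, the 147 opposite genes lie in the quadrants of unlike sign, and the 141 additive genes lie along the dotted line of equal change.

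Genes are named below by the size of their interaction, among those that passed without each single array and reached a mean intensity of 50 in at least 1 group of each arm, called measurable in both arms. In the opposite form the largest negative interactions belonged to a microfibril protein, a transporter, a ubiquitin ligase adaptor and a chemoattractant. Mfap4, a microfibril-associated glycoprotein of elastic fibres, had intensities of 9.91, 5.38 and 12.01 in p53- Rb- Myc+ arrays, against 115, 151 and 149 in p53- Myc+ arrays. Without the Myc+ label it had 286, 253 and 531 in p53- Rb- arrays, against 27.3, 17.5 and 32.9 in p53- arrays. All 3 arrays of p53- Rb- Myc+ were below those of p53- Myc+, all 3 of p53- Rb- were above those of p53-, and p53- Rb- replicate 3 was the highest. Mfap4 fell with the Myc+ label (-2.62 ± 0.24, adjusted p = 5.79e-08) and rose without it (3.10 ± 0.24, adjusted p = 2.66e-08), an interaction of -5.72 ± 0.33 (adjusted p = 2.56e-10). Slc43a3, a nucleobase transporter, had 10.97, 21.9 and 17.4 in p53- Rb- Myc+ arrays, against 608, 691 and 570.3 in p53- Myc+ arrays. Slc43a3 had 1207, 1195 and 1069 in p53- Rb- arrays, against 551, 573 and 581 in p53- arrays. The 3 p53- Rb- Myc+ arrays were near the bottom of the scale and the 9 others of the contrast were all high. Its change was -4.30 ± 0.16 with and 1.004 ± 0.16 without the Myc+ label, with an interaction of -5.30 ± 0.23 (adjusted p = 1.66e-12).

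Klhl13, an adaptor of the CUL3 ubiquitin ligase that acts on Aurora B in mitosis, had 27.6, 31.9 and 36.6 in p53- Rb- Myc+ arrays, against 795, 673 and 667 in p53- Myc+ arrays. Arrays without the label read 51.1, 57.6 and 82.5 in p53- Rb- arrays, against 23.2, 50.97 and 30.7 in p53- arrays. Here the p53- Myc+ arrays were the high ones and all others were low. Its change was -3.92 ± 0.20 with the Myc+ label and, between low values, 0.66 ± 0.20 without it (adjusted p = 0.0212), and the interaction was -4.58 ± 0.28 (adjusted p = 4.77e-10). Rarres2, which encodes the chemoattractant chemerin, had 138, 121 and 184 in p53- Rb- Myc+ arrays, against 569.8, 681 and 624 in p53- Myc+ arrays. The remaining arrays read 1347, 1339 and 2719 in p53- Rb- arrays, against 433, 567 and 417 in p53- arrays. Neither arm overlapped, and replicate 3 of p53- Rb- again stood above its group. Its changes were -1.98 ± 0.22 with and 1.83 ± 0.22 without the Myc+ label, and the interaction was -3.81 ± 0.31 (adjusted p = 3.21e-08).

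Among opposite genes measurable in both arms, the largest positive interactions were those of a receptor, a signalling inhibitor, a ubiquitin ligase and a chemokine. Adgrg2, an adhesion G protein-coupled receptor, had 194, 197 and 166 in p53- Rb- Myc+ arrays, against 8.43, 0.00901 and 12.7 in p53- Myc+ arrays. Without the Myc+ label it had 104, 118 and 95.1 in p53- Rb- arrays, against 167, 208 and 154 in p53- arrays. The p53- Myc+ arrays were at or near 0 and every other array was well above them. Adgrg2 rose with the Myc+ label (3.17 ± 0.19, adjusted p = 8.17e-11) and fell without it (-0.66 ± 0.19, adjusted p = 0.0163), an interaction of 3.83 ± 0.27 (adjusted p = 2.50e-09). Socs2, a feedback inhibitor of cytokine and growth hormone signalling, had 205, 256 and 253 in p53- Rb- Myc+ arrays, against 29.6, 26.6 and 33.03 in p53- Myc+ arrays. Its intensities without the label were 239, 244 and 240.4 in p53- Rb- arrays, against 398, 485 and 373 in p53- arrays. The p53- Rb- Myc+ arrays stood at the level of p53- Rb- arrays, while p53- Myc+ arrays were the lowest and p53- arrays the highest. The interaction of Socs2 was 3.22 ± 0.22 (adjusted p = 2.50e-09) from 2.47 ± 0.16 with and -0.75 ± 0.16 without the Myc+ label.

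Rnf128, an E3 ubiquitin ligase known from anergic T cells, had 125, 145 and 117 in p53- Rb- Myc+ arrays, against 13.5, 34.9 and 21.3 in p53- Myc+ arrays. Its other values were 94.2, 109 and 59.6 in p53- Rb- arrays, against 159, 143 and 175 in p53- arrays. No arm overlapped, and p53- Myc+ arrays were the lowest of the 4 groups. Its interaction was 2.70 ± 0.28 (adjusted p = 9.25e-07) with changes of 1.92 ± 0.20 and -0.78 ± 0.20 with and without the Myc+ label. Ppbp, the CXC chemokine pro-platelet basic protein, had 72.2, 62.8 and 77.7 in p53- Rb- Myc+ arrays, against 21.2, 13.6 and 20.8 in p53- Myc+ arrays. Arrays without the Myc+ label were far brighter, with 1966, 2142 and 1817 in p53- Rb- arrays, against 3755, 3353 and 3431 in p53- arrays. Its Rb changes of 1.34 ± 0.16 with and -0.83 ± 0.16 without the label therefore lie at very unlike levels, and the interaction was 2.16 ± 0.22 (adjusted p = 6.78e-07). All 8 genes passed in all 27 alternative analyses, with the highest adjusted p at 0.00175, for Adgrg2 with 1 in place of 16 added. Passing without each single array of the contrast and being measurable in both arms were conditions of being named. The alternatives that rest on these conditions therefore add no support. Of the 147 opposite genes, 145 had no overlap between arrays in either arm. The same held for 139 of the 141 additive genes and for 461 of the 14988 genes without any call. Opposite and additive genes must pass in both arms, so this lack of overlap describes the calls and adds no support.

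**Figure D2:**
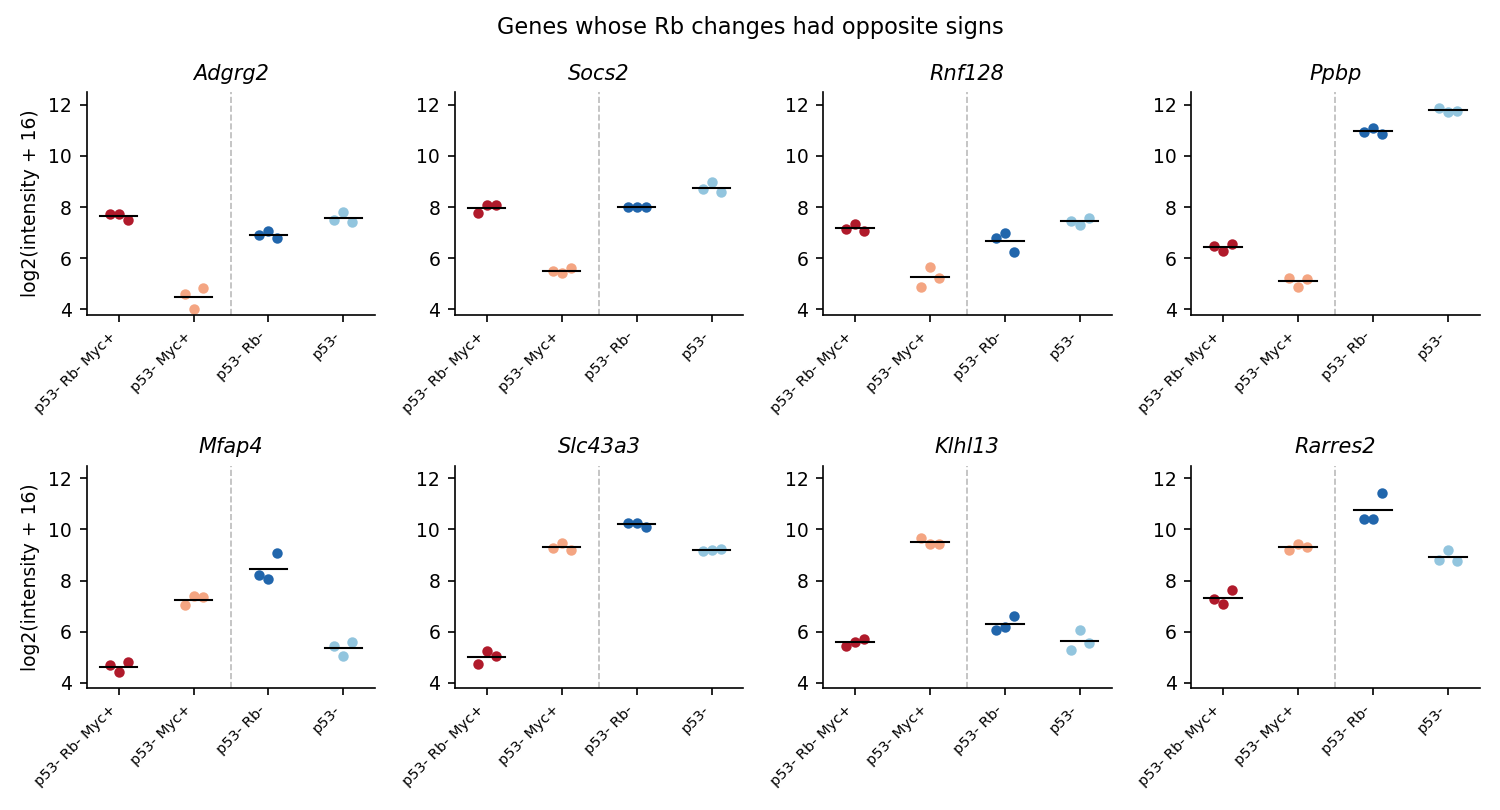
Log2(intensity + 16) of each array for 8 opposite genes, with points for arrays, a bar for the group mean of 3 arrays and a dashed line between the arms. In the upper row p53- Rb- Myc+ lies above p53- Myc+ while p53- Rb- lies below p53-, and in the lower row both relations are turned round, with Mfap4 spanning the widest interaction (-5.72).

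Genes that rose with Rb only in the arm labelled Myc+ were led by a fibulin, a growth factor binding protein and a transporter. Efemp1, which encodes the matrix protein fibulin 3, had 1147, 1021 and 879 in p53- Rb- Myc+ arrays, against 10.96, 14.8 and 0.0223 in p53- Myc+ arrays. Efemp1 without the label had 125, 149 and 148 in p53- Rb- arrays, against 97.7, 141 and 139.9 in p53- arrays. The p53- Rb- Myc+ arrays were the highest of all 12, the p53- Myc+ arrays were at or near 0, and the other groups overlapped at an intermediate level. Its change was 5.44 ± 0.20 with the Myc+ label and 0.15 ± 0.20 (95% interval -0.27 to 0.58) without it, and the interaction of 5.28 ± 0.29 (adjusted p = 1.05e-10) was the largest positive one among the genes named here. Igfbp4, which binds insulin-like growth factors, had 698, 745 and 783 in p53- Rb- Myc+ arrays, against 32.3, 31.9 and 34.1 in p53- Myc+ arrays. Without the Myc+ label the arrays overlapped, with 311, 252 and 401 in p53- Rb- arrays, against 317, 375 and 229 in p53- arrays. It rose by 3.96 ± 0.19 with the Myc+ label, its change without it was 0.07 ± 0.19 (95% interval -0.32 to 0.46), an interaction of 3.89 ± 0.27 (adjusted p = 2.32e-09). Slco2a1, a prostaglandin transporter, had 451, 408 and 555 in p53- Rb- Myc+ arrays, against 21.6, 32.4 and 26.4 in p53- Myc+ arrays. Slco2a1, in arrays without the label, had 1272, 1262 and 1675 in p53- Rb- arrays, against 1593, 2162 and 1558 in p53- arrays. Both groups labelled Myc+ were below both groups without the label, and the Rb change passed in the groups labelled Myc+ only. It was 3.50 ± 0.18 with and -0.33 ± 0.18 without the label (interaction 3.83 ± 0.25, adjusted p = 1.15e-09).

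Those that fell with Rb only in the arm labelled Myc+ were led by a tubulin, a protease and an F-box protein. Tubb3, the beta-tubulin best known from neurons, had 77.4, 68.3 and 121 in p53- Rb- Myc+ arrays, against 924, 701 and 851 in p53- Myc+ arrays. Its values were 147, 181 and 142 in p53- Rb- arrays, against 131, 115 and 153 in p53- arrays. Only p53- Myc+ arrays were high, and the other arm overlapped. Tubb3 fell by 3.03 ± 0.20 with the Myc+ label, had a change of 0.21 ± 0.20 without it (95% interval -0.20 to 0.63) and an interaction of -3.24 ± 0.28 (adjusted p = 7.09e-08). Mmp3, the matrix protease stromelysin 1, had 37.05, 24.6 and 30.3 in p53- Rb- Myc+ arrays, against 341, 322 and 377 in p53- Myc+ arrays. It stayed high without the Myc+ label, with 874, 909.9 and 969.9 in p53- Rb- arrays, against 969, 599 and 884 in p53- arrays. The p53- Rb- Myc+ arrays were the low ones. Its changes were -2.97 ± 0.18 with and 0.19 ± 0.18 without the label, and the interaction was -3.16 ± 0.25 (adjusted p = 1.94e-08). Fbxo17, a substrate-binding F-box protein, had 4.16, 11.9 and 14.4 in p53- Rb- Myc+ arrays, against 148, 204 and 167 in p53- Myc+ arrays. All other arrays were high, with 216, 178 and 189 in p53- Rb- arrays, against 209, 236 and 209 in p53- arrays. Its interaction of -2.71 ± 0.25 (adjusted p = 1.44e-07) came from a change of -2.86 ± 0.17 with the Myc+ label and -0.16 ± 0.17 without it.

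Genes that rose with the Rb- label only in the arm without Myc+ were led by 2 matrix genes and the locus D17H6S56E-5. D17H6S56E-5 had 462, 501 and 463 in p53- Rb- Myc+ arrays, against 582.4, 596 and 574 in p53- Myc+ arrays. The arm without the label gave 2131, 2217 and 2146 in p53- Rb- arrays, against 219, 289 and 246 in p53- arrays. The p53- Rb- arrays stood far above the 9 others, and p53- Rb- Myc+ arrays were slightly below p53- Myc+ arrays without overlap. Its change was -0.29 ± 0.15 (95% interval -0.61 to 0.03) with the Myc+ label and 3.04 ± 0.15 without it, an interaction of -3.32 ± 0.22 (adjusted p = 1.15e-09). Mfap5, a microfibril-associated glycoprotein, had 89.9, 72.8 and 102 in p53- Rb- Myc+ arrays, against 67.5, 91.1 and 125 in p53- Myc+ arrays. Without the Myc+ label it had 1667, 1554 and 2534 in p53- Rb- arrays, against 261, 431 and 279 in p53- arrays. The arm labelled Myc+ overlapped at a low level and the other arm did not. Its changes were -0.06 ± 0.22 with and 2.51 ± 0.22 without the label (interaction -2.57 ± 0.31, adjusted p = 6.75e-06). Col6a2, a chain of collagen VI, had 151, 147 and 118 in p53- Rb- Myc+ arrays, against 159, 149 and 164 in p53- Myc+ arrays. In the other arm Col6a2 had 119.8, 135 and 284 in p53- Rb- arrays, against 20.4, 44.9 and 32.7 in p53- arrays. Here the p53- arrays were the low group and the other 3 groups shared a range, apart from p53- Rb- replicate 3, which lay above it. The change of Col6a2 was -0.17 ± 0.23 (95% interval -0.66 to 0.31) with and 1.95 ± 0.23 without the Myc+ label. Its interaction was -2.12 ± 0.33 (adjusted p = 1.61e-04).

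Falls confined by the calls to the arm without Myc+ were led by a cargo receptor of the secretory pathway, an interferon-induced gene and a nucleolar gene. Tmed5, a p24 family protein of transport between endoplasmic reticulum and Golgi, had 370.5, 458 and 350.1 in p53- Rb- Myc+ arrays, against 271, 259 and 231 in p53- Myc+ arrays. Tmed5 had 129, 203 and 107 in p53- Rb- arrays, against 573, 503 and 592 in p53- arrays. The p53- Rb- arrays were the lowest of all 12, and in the arm labelled Myc+ the order was turned round without overlap, though that change of 0.59 ± 0.18 did not pass (adjusted p = 0.0719). Tmed5 fell by 1.86 ± 0.18 without the label, and its interaction was 2.45 ± 0.26 (adjusted p = 1.34e-06). Ifi202b, an interferon-induced gene with close relatives that the probes may also bind, had 101, 73.7 and 60.4 in p53- Rb- Myc+ arrays, against 82.8, 85.9 and 47.1 in p53- Myc+ arrays. Its values in the other arm were 24.7, 36.97 and 15.6 in p53- Rb- arrays, against 173, 168 and 144 in p53- arrays. The change was 0.11 ± 0.23 with and -2.12 ± 0.23 without the Myc+ label, and the interaction was 2.23 ± 0.32 (adjusted p = 5.95e-05). Esf1, whose yeast counterpart processes ribosomal RNA, had 357, 390.1 and 318 in p53- Rb- Myc+ arrays, against 314, 360.5 and 270.2 in p53- Myc+ arrays. Arrays without the label read 89.7, 114 and 64.6 in p53- Rb- arrays, against 403, 379 and 425 in p53- arrays. Only p53- Rb- arrays were low among these 12, and Esf1 had 56.3, 40.05 and 71.9 in WT arrays, below or within the range of p53- Rb- arrays. Its changes were 0.17 ± 0.19 (95% interval -0.23 to 0.57) with and -2.01 ± 0.19 without the label, an interaction of 2.18 ± 0.27 (adjusted p = 9.95e-06).

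**Figure D3:**
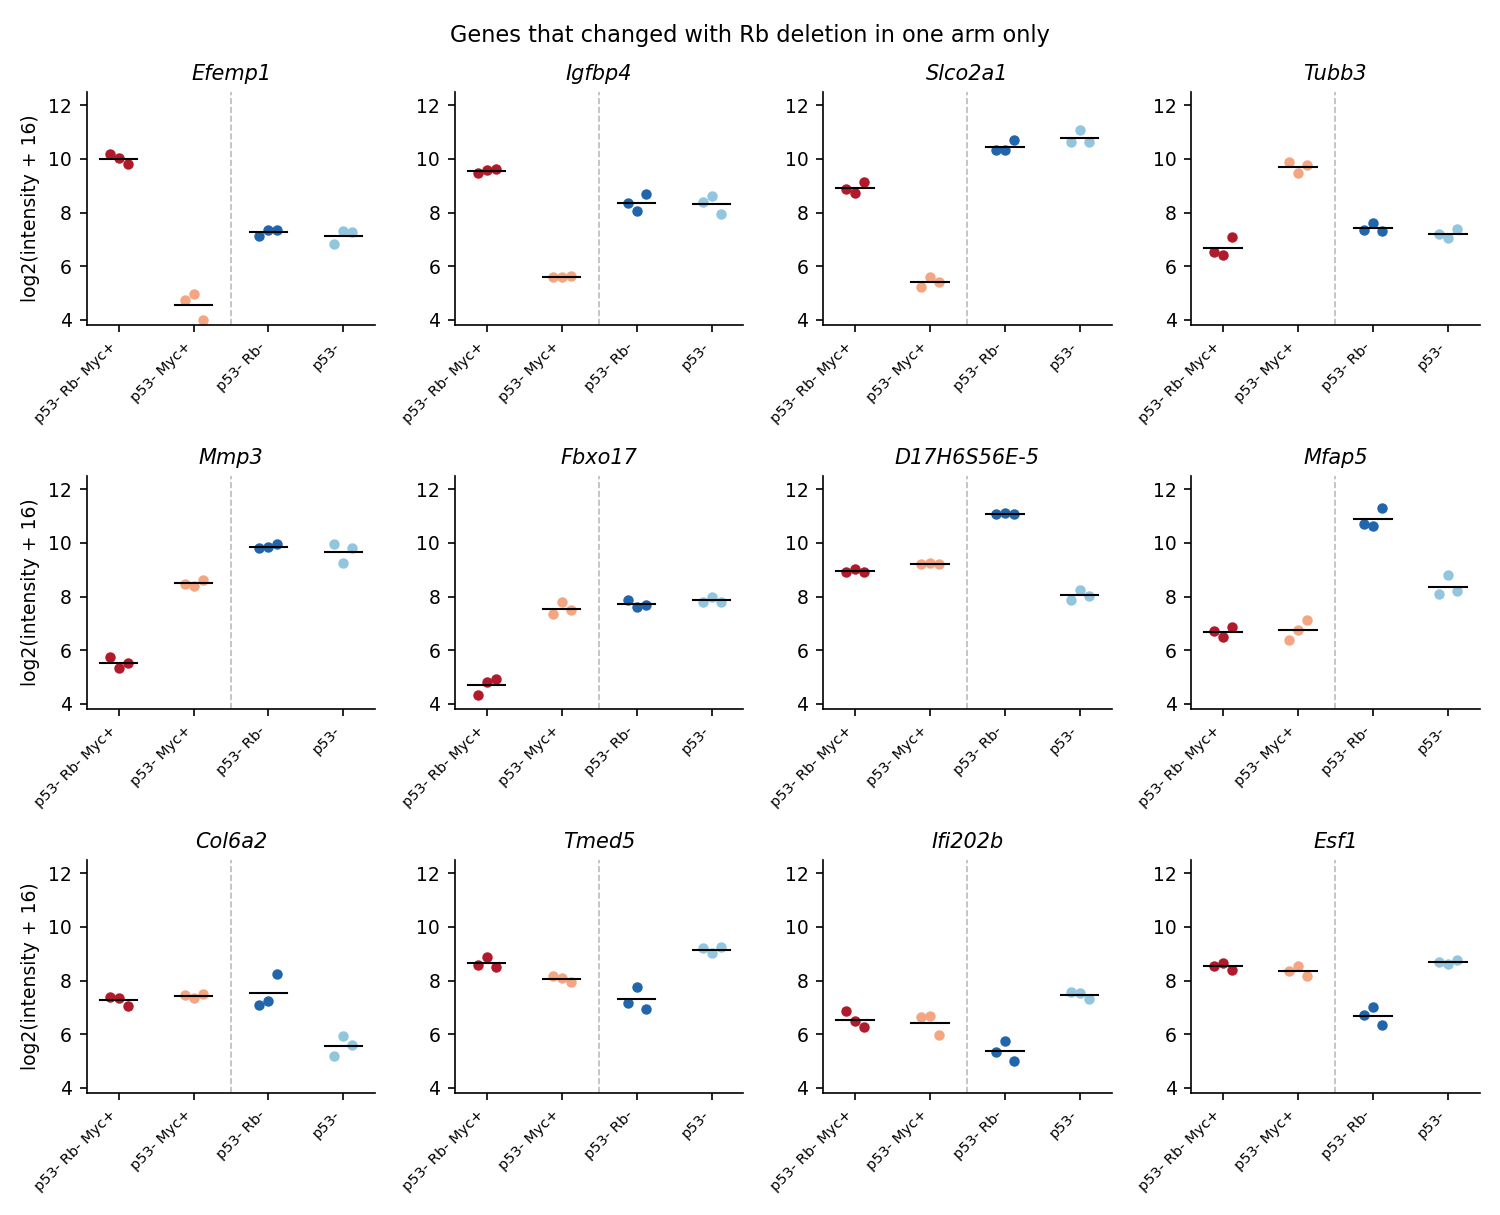
Log2(intensity + 16) of each array for 12 genes that changed with Rb in 1 arm, with points for arrays, bars for means of 3 arrays and a dashed line between the arms. From Efemp1 to Fbxo17 the groups labelled Myc+ part and those without the label meet, and from D17H6S56E-5 to Esf1 the groups without the label part more widely than those labelled Myc+, which overlap apart from D17H6S56E-5 and Tmed5.

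Some genes with a single-arm call had little signal in the other arm. Of the 369 genes of the form with Myc+, 13 averaged 16 or less and 96 had a mean under 50 in both groups without the label. Of the 1751 of the form without Myc+, 182 averaged 16 or less in both groups labelled Myc+, and 552 had a mean under 50 in both. Over all 19938 genes, 2216 averaged 16 or less in both groups labelled Myc+ and 1521 in both groups without the label. Values at that floor are thus not particular to single-arm genes. Muc1, a mucin of the luminal surface, is the largest such case. It had 11.5, 9.77 and 9.48 in p53- Rb- Myc+ arrays, against 9.70, 4.26 and 12.4 in p53- Myc+ arrays. Its intensities without the label were 529, 485 and 477 in p53- Rb- arrays, against 19.4, 24.5 and 12.8 in p53- arrays. Muc1 rose by 3.89 ± 0.19 where it was measurable, and its interaction of -3.79 ± 0.27 (adjusted p = 3.30e-09) compares that with 2 groups near the bottom of the scale. Nr1h5, a nuclear receptor related to the bile acid receptor FXR, had 7.25, 5.29 and 0.870 in p53- Rb- Myc+ arrays, against 3.77, 0.544 and 2.69 in p53- Myc+ arrays. Nr1h5 without the label had 3.33, 0.955 and 1.98 in p53- Rb- arrays, against 106, 106 and 166 in p53- arrays. Only the p53- arrays carried signal, so its interaction of 3.10 ± 0.26 (adjusted p = 4.36e-08) says nothing of Rb in cells labelled Myc+. Scnn1a, a subunit of the epithelial sodium channel, had 14.5, 17.5 and 6.83 in p53- Rb- Myc+ arrays, against 9.91, 12.5 and 7.64 in p53- Myc+ arrays. Without the label it had 358, 339 and 352 in p53- Rb- arrays, against 38.6, 63.04 and 31.8 in p53- arrays, and the interaction was -2.49 ± 0.28 (adjusted p = 3.45e-06). Over the 10742 genes with a mean of 50 or more in at least 1 group of each arm, 1788 of the 2719 calls remained, and a test restricted to these genes, chosen after the data were seen, called 2155.

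Same-direction genes changed with Rb in both arms but by unequal amounts. Crip1, a LIM-domain protein, had 498, 606 and 571 in p53- Rb- Myc+ arrays, against 21.5, 34.2 and 28.8 in p53- Myc+ arrays. Crip1, in arrays without the label, had 2433, 2088 and 3337 in p53- Rb- arrays, against 1268, 1962 and 1013 in p53- arrays. Crip1 rose in both arms without overlap, by 3.71 ± 0.22 with and 0.91 ± 0.22 without the Myc+ label, and its interaction of 2.80 ± 0.30 (adjusted p = 1.69e-06) was lost on the square root scale (adjusted p = 0.483). Ctsc, the lysosomal protease cathepsin C, had 432, 387 and 341 in p53- Rb- Myc+ arrays, against 32.8, 24.8 and 28.4 in p53- Myc+ arrays. Its remaining arrays read 664, 632 and 702 in p53- Rb- arrays, against 337, 444 and 303 in p53- arrays. It rose by 3.17 ± 0.16 with and 0.87 ± 0.16 without the label (interaction 2.30 ± 0.23, adjusted p = 6.29e-07). The 2 named genes with the smaller rise under the Myc+ label are acute-phase genes. Hp, which encodes haptoglobin, had 45.97, 46.1 and 72.8 in p53- Rb- Myc+ arrays, against 18.6, 21.9 and 26.4 in p53- Myc+ arrays. The arm without the label gave 369, 303 and 315 in p53- Rb- arrays, against 70.7, 40.7 and 39.3 in p53- arrays. Its changes were 0.87 ± 0.19 with and 2.41 ± 0.19 without the label, and the interaction was -1.54 ± 0.27 (adjusted p = 5.08e-04). Serpina3n, a protease inhibitor from a family of close copies that the probes may share, had 88.9, 91.7 and 85.5 in p53- Rb- Myc+ arrays, against 21.2, 25.7 and 26.4 in p53- Myc+ arrays. In the other arm Serpina3n had 277, 293 and 664 in p53- Rb- arrays, against 35.5, 50.3 and 54.3 in p53- arrays. It rose by 1.37 ± 0.23 with and 2.67 ± 0.23 without the label, and the interaction of -1.29 ± 0.32 (adjusted p = 0.00945) was lost with 1 in place of 16 added (adjusted p = 0.0743).

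Additive genes changed in the same direction in both arms, with no interaction call and the 95% interval of the difference inside 2-fold. Lbp, the lipopolysaccharide-binding protein of the acute phase, had 292, 333 and 266 in p53- Rb- Myc+ arrays, against 47.99, 40.6 and 29.4 in p53- Myc+ arrays. Lbp had 586, 534 and 781 in p53- Rb- arrays, against 96.9, 149 and 65.98 in p53- arrays. It rose by 2.51 ± 0.22 with and 2.48 ± 0.22 without the Myc+ label without overlap in either arm, and the difference was 0.03 ± 0.31 with a 95% interval of -0.62 to 0.68. Tns1, a tensin of focal adhesions, had 662, 715 and 731 in p53- Rb- Myc+ arrays, against 135, 177 and 166 in p53- Myc+ arrays. Its values were 538, 531 and 719.9 in p53- Rb- arrays, against 151, 197 and 175 in p53- arrays. Its rises were 2.04 ± 0.17 and 1.68 ± 0.17, with a difference of 0.37 ± 0.24 (95% interval -0.12 to 0.86). Stard13, a lipid transfer domain protein of the START family, had 93.8, 99.8 and 71.3 in p53- Rb- Myc+ arrays, against 172, 277 and 248 in p53- Myc+ arrays. Arrays without the label read 56.3, 67.9 and 42.5 in p53- Rb- arrays, against 113, 192 and 154 in p53- arrays. It fell in both arms, with changes of -1.24 ± 0.21 and -1.23 ± 0.21 and a 95% interval of the difference of -0.62 to 0.60. Man2a1, a Golgi mannosidase of N-glycan processing, had 453, 374 and 319.5 in p53- Rb- Myc+ arrays, against 752, 849.5 and 580.5 in p53- Myc+ arrays. Its intensities without the label were 378, 463 and 318 in p53- Rb- arrays, against 723, 716 and 730.1 in p53- arrays. Its changes were -0.90 ± 0.18 and -0.89 ± 0.18, and the interval of the difference was -0.53 to 0.52. These intervals bound the difference and do not show equal change.

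The interaction can also be read by which group stood apart. Among the 2719 genes, the 3 p53- Rb- Myc+ arrays lay above all 9 others of the contrast in 174 genes (6.4%, against 2.67% of all genes) and below them in 217 (7.98%, against 2.33%). The p53- Myc+ arrays lay above in 153 (5.63%, against 2.78%) and below in 324 (11.9%, against 5.2%). The p53- Rb- arrays lay above in 467 (17.2%, against 8.02%) and below in 529 (19.5%, against 7.09%), and the p53- arrays above in 530 (19.5%, against 5.61%) and below in 305 (11.2%, against 5.54%). Being apart is part of what the interaction measures, so these shares describe the calls and test nothing. The mean of WT arrays, which are not in the contrast, was nearer to p53- Rb- than to p53- in 1844 of the 2719 genes (67.8%, against 59.5% of all genes), and in 1279 of the 1751 genes (73%) that changed only without the Myc+ label. Read by MYC in place of Rb, the same 2719 genes changed with the Myc+ label in both Rb states in the same direction for 601 genes and in opposite directions for 270. The Myc+ change passed only among Rb- arrays in 1012, only among arrays without the Rb- label in 750 and in neither in 86. This split was counted within the interaction calls alone and not over all genes. It therefore describes the calls and does not set them apart from other genes.

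Gene lists are described by how many of their measured members had an interaction call, beside the 13.6% of all genes, and by their median. That share was larger among brighter genes, with calls for 1788 of the 10742 measurable in both arms. A test of the 9969 genes at or above the median level alone called 2134. The median interaction also differed with level. It was -0.0417 over these 9969 genes and 0.011 over the 10742, against 0.132 over all genes. Neither the shares nor the medians of lists were matched for level. How much of a list's distance from the median of all genes follows from level was not tested. The lists share some members, and 638 of 680 entries had a probe set. The 17 pocket proteins and E2F factors, the machinery through which Rb acts, had 0 calls, with interactions from -0.599 to 0.602. In the same limma fit 5 of the 17 had an unadjusted p under 0.05, and after quantile normalization 1 passed. Among 45 S-phase genes known as E2F targets, 3 had a positive and 1 a negative interaction (8.89%), and 41 did not pass. The median of the list was -0.34, which is -0.47 relative to all genes, with 2 positive and 7 negative after centring but 4 positive and 1 negative after quantile normalization. The Rb change of the list passed for 1 member with the Myc+ label, which was higher, and without it for 10 that were higher and 3 that were lower.

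Hells, a chromatin remodelling helicase needed in proliferating cells, had the smallest p of the E2F list. It had 375, 338 and 299 in p53- Rb- Myc+ arrays, against 389, 399 and 297 in p53- Myc+ arrays. Hells without the label had 96.2, 127 and 59.8 in p53- Rb- arrays, against 379, 334 and 439 in p53- arrays. The p53- Rb- arrays were the lowest and the other 3 groups of the contrast overlapped. Its change was -0.09 ± 0.21 (95% interval -0.52 to 0.34) with the Myc+ label, it fell by 1.90 ± 0.21 without it, and the interaction was 1.81 ± 0.29 (adjusted p = 2.55e-04). Genes named from the E2F list or as the largest of the opposite form were checked for an E2F motif before the start. Hells was the 1 found to have it. Opposite genes named from other lists were not part of this check. The promoter of Hells is shown with that motif, which lies 62 bases before the start, in capitals. The 250 bases before the start are chr19:38930740-38930989 on the plus strand of GRCm38.p6, from RefSeq.
Hells: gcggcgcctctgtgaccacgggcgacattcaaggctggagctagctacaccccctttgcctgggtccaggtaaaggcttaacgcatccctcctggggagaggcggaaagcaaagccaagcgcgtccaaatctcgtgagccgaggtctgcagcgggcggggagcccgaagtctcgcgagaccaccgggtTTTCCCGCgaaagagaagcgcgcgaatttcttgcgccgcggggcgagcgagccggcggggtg
The letters TTTCCCGC or TTTGGCGC, on either strand and with each promoter counted once, stood in 1.93% of 15614 such promoters and in 7 of 39 promoters of the E2F list (17.9%). They stood in 0.901% of 111 promoters of opposite genes, 0.722% of 277 of genes changed only with the Myc+ label, 2.79% of 1364 of genes changed only without it, and none of 105 of additive genes. The E-box CACGTG, which MYC is known to bind, was in 7.03% of all promoters, 8.11% of opposite genes, 7.94% and 6.96% of genes changed only with and only without the label, and 5.71% of additive genes. A match is a description of these letters and not of binding.

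The negative member, Gins2 of the GINS replication complex (-0.74 ± 0.23, adjusted p = 0.0324), lost its call in 8 alternatives, with adjusted p up to 0.0942 (without p53- replicate 1). Ccne2, which encodes cyclin E2, had 218, 199 and 159 in p53- Rb- Myc+ arrays, against 176, 137 and 196 in p53- Myc+ arrays. Ccne2, in arrays without the label, had 43.5, 61.3 and 33.4 in p53- Rb- arrays, against 147, 99.3 and 152 in p53- arrays. The p53- Rb- arrays were the lowest, and the interaction was 1.43 ± 0.28 (adjusted p = 0.00163). Of 37 mitosis genes, 6 had a positive interaction and 0 a negative one (16.2%), all 6 in the form without Myc+. The median of the list was 0.027, or -0.10 relative to all genes. It lay above the median of the genes at or above the median level (-0.0417). After centring the list had 5 positive and 3 negative calls, and after quantile normalization 8 positive. Smc4 and Smc2, the core subunits of condensin, had interactions of 1.70 ± 0.27 (adjusted p = 1.72e-04) and 1.69 ± 0.33 (adjusted p = 0.00154). Smc4 had 658, 802 and 562 in p53- Rb- Myc+ arrays, against 653, 591 and 514 in p53- Myc+ arrays. The arm without the label gave 265, 324 and 191 in p53- Rb- arrays, against 786, 647 and 853 in p53- arrays. Cenpe, a kinetochore motor, had group means of 343 in p53- Rb- Myc+ against 265 in p53- Myc+ arrays and 129.6 in p53- Rb- against 485 in p53- arrays and an interaction of 2.14 ± 0.38 (adjusted p = 6.95e-04). Ccnd2, which encodes cyclin D2, was of the opposite form. It had 581, 515 and 494 in p53- Rb- Myc+ arrays, against 940.4, 1072 and 784 in p53- Myc+ arrays. Its other arrays gave 699, 789.5 and 749 in p53- Rb- arrays, against 428, 540.4 and 443 in p53- arrays. No arm overlapped, with changes of -0.79 ± 0.16 with and 0.65 ± 0.16 without the Myc+ label (interaction -1.44 ± 0.23, adjusted p = 2.42e-04). In all, 3 of 14 CDK inhibitors and G1 cyclins passed (21.4%), 2 positive and 1 negative, and the third, Cdk6 (0.75 ± 0.23, adjusted p = 0.0362), lost its call in 10 alternatives with adjusted p up to 0.106 (without p53- Rb- Myc+ replicate 2).

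Of 33 known targets of p53, which all 4 groups lack by label, 6 had a positive and 1 a negative interaction (21.2%), against 5 and 4 after centring and 5 and 3 after quantile normalization. Ak1, an adenylate kinase, had group means of 7.01 in p53- Rb- Myc+ against 6.54 in p53- Myc+ arrays and 445 in p53- Rb- against 97.4 in p53- arrays, and its interaction of -1.99 ± 0.29 (adjusted p = 6.06e-05) sets a rise without the label against values at the floor and was lost with 1 in place of 16 added (adjusted p = 0.0925). Pmaip1, the BH3-only killer Noxa, and the stress gene Trp53inp1 were likewise low in both groups labelled Myc+. Pmaip1 averaged 6.01 in p53- Rb- Myc+ against 2.74 in p53- Myc+ arrays and 64.4 in p53- Rb- against 185 in p53- arrays (interaction 1.55 ± 0.31, adjusted p = 0.00175). Trp53inp1 averaged 15.2 in p53- Rb- Myc+ against 12.8 in p53- Myc+ arrays and 79.8 in p53- Rb- against 199 in p53- arrays (interaction 1.28 ± 0.31, adjusted p = 0.00744). Of 21 BCL2 family and caspase genes, 3 had a positive interaction and none a negative one (14.3%). Bid, a BH3-only protein that caspase 8 cleaves, had 219, 224 and 192 in p53- Rb- Myc+ arrays, against 88.6, 92.5 and 89.2 in p53- Myc+ arrays. In the other arm Bid had 138, 162 and 171 in p53- Rb- arrays, against 139, 140.5 and 129.7 in p53- arrays. Only the p53- Myc+ arrays stood low, and the interaction was 0.92 ± 0.21 (adjusted p = 0.0046). Casp8 itself had group means of 124 in p53- Rb- Myc+ against 54.5 in p53- Myc+ arrays and 415 in p53- Rb- against 379 in p53- arrays and an interaction of 0.87 ± 0.22 (adjusted p = 0.0101) lost on the square root scale (adjusted p = 0.0709).

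Genes of ribosome production and metabolism that MYC is known to activate had few calls. Of 40 ribosome biogenesis genes 3 had a positive and none a negative interaction (7.5%), with 1 positive and 3 negative after centring and 4 positive after quantile normalization, and the median was -0.24 relative to all genes. Nop58, a core protein of box C/D snoRNPs, had 897, 1032 and 736 in p53- Rb- Myc+ arrays, against 1038, 949.7 and 795 in p53- Myc+ arrays. Nop58 had 355, 424 and 289 in p53- Rb- arrays, against 903, 704 and 968 in p53- arrays. The p53- Rb- arrays were the lowest of the 12, and the interaction was 1.17 ± 0.25 (adjusted p = 0.0035). Nucleolin (Ncl, 0.84 ± 0.24, adjusted p = 0.021) and nucleophosmin (Npm1, 0.79 ± 0.23, adjusted p = 0.0244) followed, and they lost the call in 5 and 6 alternatives, among them centring, with the highest adjusted p without p53- replicate 3 (0.0662 and 0.0813). Of 32 metabolic targets 1 passed (3.12%), the amino acid transporter subunit Slc3a2 (-0.67 ± 0.21, adjusted p = 0.0407), which lost its call in 11 alternatives with adjusted p up to 0.104, the highest without p53- replicate 3. Of 18 cholesterol synthesis genes 1 passed (5.56%), the isopentenyl isomerase Idi1 (1.30 ± 0.28, adjusted p = 0.00292), with means of 907 in p53- Rb- Myc+ against 778 in p53- Myc+ arrays and 278 in p53- Rb- against 606 in p53- arrays. Of 19 genes of the unfolded protein and amino acid response 3 passed (15.8%). Herpud1, of endoplasmic reticulum degradation, had means of 225 in p53- Rb- Myc+ against 312 in p53- Myc+ arrays and 419 in p53- Rb- against 219 in p53- arrays (interaction -1.34 ± 0.24, adjusted p = 7.99e-04), and Asns, asparagine synthetase, had means of 860 in p53- Rb- Myc+ against 1058 in p53- Myc+ arrays and 855 in p53- Rb- against 588 in p53- arrays (interaction -0.82 ± 0.21, adjusted p = 0.0112). The third, the chaperone gene Dnajb9 (0.86 ± 0.25, adjusted p = 0.0267), lost its call in 6 alternatives, with adjusted p up to 0.094 (without p53- replicate 3).

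Hypoxia-induced genes had negative interactions. Of 21, 12 were negative and none positive (57.1%), against 12 and 11 negative after centring and quantile normalization. Of the 12, 9 changed only without the Myc+ label and 2 only with it. The list's median Rb change was 0.107 with the Myc+ label and 0.568 without it, beside 0.0544 and -0.082 for all genes. Car9, carbonic anhydrase 9, had 12.6, 20.3 and 21.2 in p53- Rb- Myc+ arrays, against 14.9, 11.5 and 18.2 in p53- Myc+ arrays. Arrays without the label read 232, 186 and 210.4 in p53- Rb- arrays, against 46.3, 38.9 and 28.1 in p53- arrays. Only the p53- Rb- arrays were high, and the interaction was -1.94 ± 0.25 (adjusted p = 1.38e-05). Bnip3, a mitochondrial BH3-like protein, had 468, 458 and 363 in p53- Rb- Myc+ arrays, against 568, 504 and 478 in p53- Myc+ arrays. Its intensities without the label were 570.5, 625 and 710.3 in p53- Rb- arrays, against 282, 326 and 239.5 in p53- arrays. The p53- arrays were the low group, and the interaction was -1.39 ± 0.23 (adjusted p = 2.87e-04). Adm, the vasoactive peptide adrenomedullin, instead fell only with the Myc+ label. It had 19.7, 18.6 and 18.6 in p53- Rb- Myc+ arrays, against 74.8, 74 and 82.5 in p53- Myc+ arrays. Without the label it had 256, 299 and 355 in p53- Rb- arrays, against 257, 226 and 289 in p53- arrays, where the groups overlapped, and the interaction was -1.63 ± 0.22 (adjusted p = 2.79e-05). Of 17 glycolysis genes 3 passed, all negative (17.6%), against 5 after centring and 2 after quantile normalization. The isoenzyme gene Aldoc had means of 30.9 in p53- Rb- Myc+ against 18.1 in p53- Myc+ arrays and 257 in p53- Rb- against 60.1 in p53- arrays (interaction -1.38 ± 0.25, adjusted p = 8.68e-04). Eno2, of neuron-specific enolase, had means of 28.1 in p53- Rb- Myc+ against 36.1 in p53- Myc+ arrays and 75 in p53- Rb- against 16.7 in p53- arrays (interaction -1.72 ± 0.35, adjusted p = 0.00198). The third, the phosphofructokinase gene Pfkl (-0.70 ± 0.23, adjusted p = 0.0445), lost its call in 14 alternatives, with adjusted p up to 0.126 without p53- replicate 3.

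Genes of the extracellular matrix and of mesenchymal cells carried many negative interactions. Of 24 collagen genes 12 were negative and 1 positive (54.2%), 4 of them opposite, and the median was -0.72, or -0.86 relative to all genes. The median Rb change of the collagens was 0.0848 with and 0.881 without the Myc+ label. Of 30 matrix glycoproteins and proteoglycans 15 were negative and 4 positive (63.3%), and 8 were opposite. Of 20 mesenchymal genes 11 were negative and none positive (55%), with a median of -0.98 relative to all genes. These counts differed by at most 1 in either direction under centring and quantile normalization. The 14 fibroblast markers, which share genes with these lists, had 11 negative and 1 positive interaction (85.7%) and a median of -1.89, and their sum moved with the groups as given above. Its part in the matrix result was not tested.

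Col1a2, a chain of collagen I, had 784, 780.1 and 592 in p53- Rb- Myc+ arrays, against 1213, 1229 and 979 in p53- Myc+ arrays. Col1a2 without the label had 1371, 1652 and 1514 in p53- Rb- arrays, against 547, 552 and 572 in p53- arrays. Neither arm overlapped, and the changes of -0.66 ± 0.16 with and 1.41 ± 0.16 without the Myc+ label gave an interaction of -2.07 ± 0.23 (adjusted p = 2.89e-06). Col6a3, of collagen VI, had 61.2, 59.9 and 48.2 in p53- Rb- Myc+ arrays, against 175, 160.1 and 194 in p53- Myc+ arrays. Col6a3, in arrays without the label, had 128, 166 and 239 in p53- Rb- arrays, against 35.2, 72.8 and 50.4 in p53- arrays. The p53- Myc+ and p53- Rb- arrays shared the higher range, and the interaction was -2.90 ± 0.31 (adjusted p = 1.10e-06). Col12a1, a collagen that lies on fibril surfaces, had means of 271 in p53- Rb- Myc+ against 606 in p53- Myc+ arrays and 877 in p53- Rb- against 450.1 in p53- arrays (interaction -2.06 ± 0.24, adjusted p = 4.02e-06). Thbs2, the antiangiogenic thrombospondin 2, had 45.7, 35.98 and 38.5 in p53- Rb- Myc+ arrays, against 195, 261 and 200 in p53- Myc+ arrays. The arm without the label gave 409.9, 463 and 513 in p53- Rb- arrays, against 163, 177 and 165 in p53- arrays. It fell by 2.06 ± 0.16 with the Myc+ label and rose by 1.37 ± 0.16 without it (interaction -3.43 ± 0.22, adjusted p = 1.15e-09). Pdgfra, a receptor of platelet-derived growth factor, had 248, 258 and 172 in p53- Rb- Myc+ arrays, against 705, 636 and 510.2 in p53- Myc+ arrays. Its other values were 154, 195 and 215 in p53- Rb- arrays, against 90.3, 94.9 and 102 in p53- arrays. All arrays of both arms were parted, with the p53- Myc+ arrays the highest, and the interaction was -2.26 ± 0.27 (adjusted p = 6.95e-06). Tagln, an actin-binding protein of smooth muscle, averaged 140.4 in p53- Rb- Myc+ against 395 in p53- Myc+ arrays and 1068 in p53- Rb- against 578 in p53- arrays (interaction -2.26 ± 0.31, adjusted p = 3.43e-05), and Pdgfrb averaged 359 in p53- Rb- Myc+ against 489 in p53- Myc+ arrays and 722 in p53- Rb- against 242 in p53- arrays (interaction -1.95 ± 0.27, adjusted p = 4.40e-05).

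**Figure D4:**
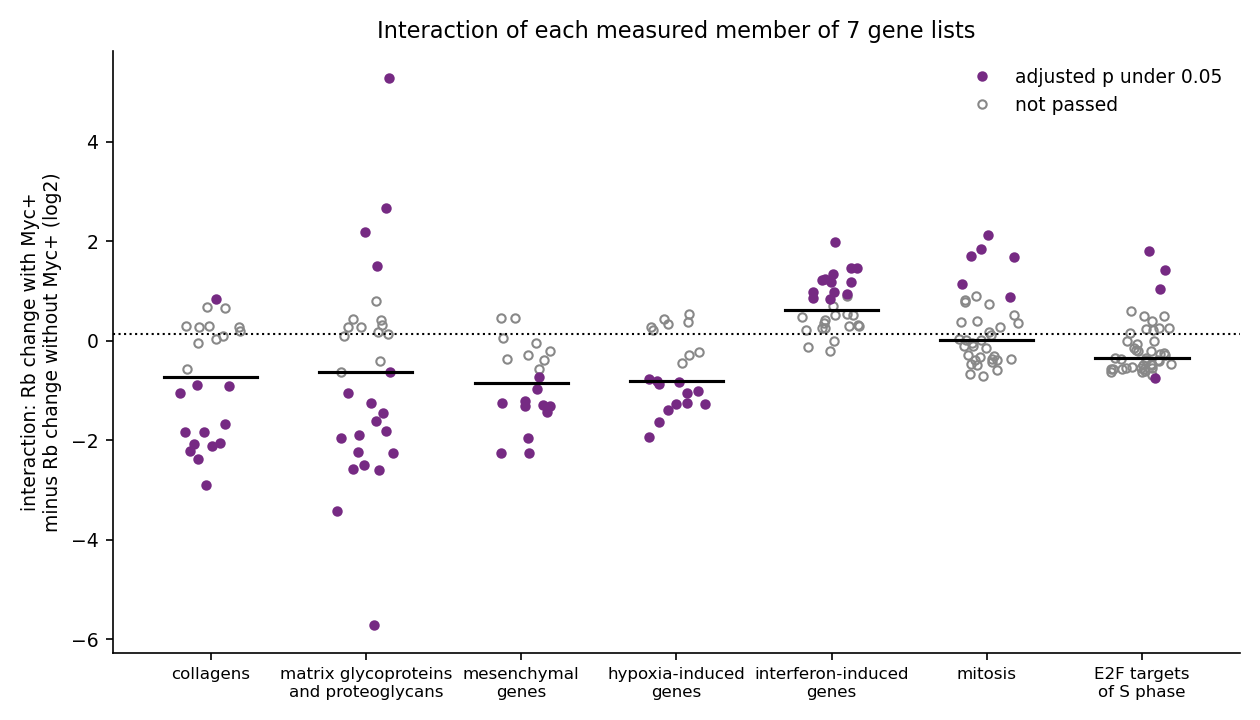
Interaction (log2, vertical) of each measured member of 7 gene lists, with filled points for genes past an adjusted p of 0.05, a bar for the list median and a dotted line at the median of all genes (0.132). Filled points of the collagens, mesenchymal and hypoxia-induced genes lie below 0 apart from 1 collagen, those of the interferon-induced and mitosis lists lie above it, and the matrix list reaches from -5.72 (Mfap4) to 5.28 (Efemp1).

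Among proteases and their inhibitors, 15 of 28 passed (53.6%), 10 negative and 5 positive. Mmp2, gelatinase A, had 422, 423 and 369.8 in p53- Rb- Myc+ arrays, against 1008, 1128 and 852 in p53- Myc+ arrays. In the other arm Mmp2 had 563, 624 and 887 in p53- Rb- arrays, against 248, 269 and 243 in p53- arrays. It was opposite without overlap, with changes of -1.26 ± 0.17 with and 1.37 ± 0.17 without the Myc+ label and an interaction of -2.63 ± 0.24 (adjusted p = 1.71e-07). Ctsk, the collagenolytic cathepsin K, was near the floor with the Myc+ label, with means of 6.48 in p53- Rb- Myc+ against 15.8 in p53- Myc+ arrays and 215 in p53- Rb- against 77.7 in p53- arrays (interaction -1.80 ± 0.24, adjusted p = 3.39e-05). Mmp3, described above, had the smallest p of the list.

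Interferon-induced genes had positive interactions. Of 30 measured members 13 were positive and none negative (43.3%), against 8 after centring and 9 after quantile normalization, again all positive. The median Rb change was 0.25 with the Myc+ label and -0.41 without it. Of the 13, 12 changed only without the label, where the list had 13 lower and 2 higher members, and 10 of the 30 averaged 16 or less in both groups labelled Myc+. Cxcl10, a chemokine that attracts T cells, had 23.2, 15.9 and 28.8 in p53- Rb- Myc+ arrays, against 22.7, 27.3 and 12.4 in p53- Myc+ arrays. Cxcl10 had 25.98, 36.8 and 16.8 in p53- Rb- arrays, against 127, 174 and 128 in p53- arrays. The p53- arrays alone were high, and the interaction was 1.996 ± 0.31 (adjusted p = 1.70e-04). Rsad2, the antiviral protein viperin, had 27, 26.9 and 30.98 in p53- Rb- Myc+ arrays, against 35.9, 27.2 and 16.02 in p53- Myc+ arrays. Arrays without the label read 30.6, 33.4 and 19.1 in p53- Rb- arrays, against 93.8, 98.9 and 97.3 in p53- arrays. The pattern was that of Cxcl10, with an interaction of 1.47 ± 0.25 (adjusted p = 4.76e-04). Isg20, an exonuclease that degrades viral RNA, differed from both in form. It had 246, 264 and 377 in p53- Rb- Myc+ arrays, against 126, 125 and 138 in p53- Myc+ arrays. Without the label it had 181, 185 and 199.9 in p53- Rb- arrays, against 216, 184 and 213 in p53- arrays, and its interaction was 1.18 ± 0.24 (adjusted p = 0.00191) from a rise of 1.08 ± 0.17 with the Myc+ label.

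Of 28 cytokines and chemokines 15 passed (53.6%), 10 positive and 5 negative. The 3 with the smallest p were all negative and opposite. Cxcl14, a chemokine of epithelia, had 9.79, 8.46 and 14.2 in p53- Rb- Myc+ arrays, against 80.8, 84.1 and 110 in p53- Myc+ arrays. Its intensities without the label were 446, 455 and 678 in p53- Rb- arrays, against 216, 252 and 239 in p53- arrays. It fell by 2.001 ± 0.18 with the Myc+ label and rose by 1.09 ± 0.18 without it (interaction -3.09 ± 0.25, adjusted p = 3.05e-08). Csf1, the macrophage growth factor, had 306, 339 and 399 in p53- Rb- Myc+ arrays, against 734, 826 and 854 in p53- Myc+ arrays. Csf1 without the label had 837, 834 and 1104 in p53- Rb- arrays, against 505, 587 and 545 in p53- arrays. Both arms were free of overlap and the interaction was -1.91 ± 0.23 (adjusted p = 5.38e-06). Cxcl12, the ligand of CXCR4, averaged 35.3 in p53- Rb- Myc+ against 145 in p53- Myc+ arrays and 168 in p53- Rb- against 111 in p53- arrays, with an interaction of -2.19 ± 0.27 (adjusted p = 8.19e-06). The summed leukocyte markers were 367 to 379 in p53- Rb- Myc+ against 286 to 295 in p53- Myc+ arrays, and 810 to 920 in p53- Rb- against 633 to 804 in p53- arrays, and their part in these values was not tested.

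Epithelial genes had calls in either direction, limited by their low level with the Myc+ label. Of 35 luminal genes 4 were positive and 3 negative (20%), and 17 averaged 16 or less in both groups labelled Myc+. Of 26 basal genes 4 were positive and 2 negative (23.1%), and 13 were at that floor. Krt19, a keratin of simple epithelia, had 486, 465 and 517 in p53- Rb- Myc+ arrays, against 65.7, 81.6 and 79.5 in p53- Myc+ arrays. Krt19, in arrays without the label, had 1315, 1306 and 1124 in p53- Rb- arrays, against 1228, 1176 and 1379 in p53- arrays. The p53- Rb- Myc+ arrays were all above the p53- Myc+ arrays and all below those without the label, and the interaction was 2.48 ± 0.21 (adjusted p = 4.36e-08) from 2.47 ± 0.15 with and -0.02 ± 0.15 without it. Cd24a, a surface glycoprotein of luminal cells, had 375, 442 and 538 in p53- Rb- Myc+ arrays, against 71.5, 69.7 and 107 in p53- Myc+ arrays. The arm without the label gave 1429, 1474 and 1444 in p53- Rb- arrays, against 1818, 1447 and 1741 in p53- arrays. The order of the groups was that of Krt19, with an interaction of 2.45 ± 0.24 (adjusted p = 5.23e-07). Itga6, the laminin-binding integrin alpha 6, had 239.6, 198 and 171 in p53- Rb- Myc+ arrays, against 49.6, 70.8 and 51.9 in p53- Myc+ arrays. In the other arm Itga6 had 456, 498 and 366 in p53- Rb- arrays, against 510.3, 536 and 564 in p53- arrays. It rose by 1.57 ± 0.17 with the label, with an interaction of 1.86 ± 0.25 (adjusted p = 2.46e-05). Cnn1, the smooth muscle protein calponin 1, averaged 10.4 in p53- Rb- Myc+ against 19.2 in p53- Myc+ arrays and 826 in p53- Rb- against 313 in p53- arrays, and it rose by 1.36 ± 0.21 without the label (interaction -1.77 ± 0.29, adjusted p = 2.94e-04). Jup, the desmosome protein plakoglobin, averaged 202 in p53- Rb- Myc+ against 47.3 in p53- Myc+ arrays and 2122 in p53- Rb- against 1605 in p53- arrays, and its interaction of 1.38 ± 0.25 (adjusted p = 8.47e-04) was lost on the square root scale (adjusted p = 0.685). Of the 10 epithelial markers used for the label check, 2 had a positive interaction.

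Signalling and positional genes were mixed. Of 31 growth factor receptors and ligands 8 were negative and 3 positive (35.5%), and Igfbp3, another carrier of insulin-like growth factors, moved against Igfbp4. It had 122, 102 and 116 in p53- Rb- Myc+ arrays, against 386, 486 and 446 in p53- Myc+ arrays. Igfbp3 had 744, 766 and 951 in p53- Rb- arrays, against 512, 820.3 and 496 in p53- arrays. It fell by 1.81 ± 0.18 with the Myc+ label, and the interaction was -2.26 ± 0.26 (adjusted p = 3.12e-06). Of 44 genes of Wnt, Notch, BMP and TGF-beta signalling 8 were positive and 7 negative (34.1%), against 6 and 9 after centring and 6 and 8 after quantile normalization. Sfrp1 and Sfrp2, secreted inhibitors of Wnt, were both opposite. Sfrp1 had 42.2, 37.1 and 68.7 in p53- Rb- Myc+ arrays, against 194, 232 and 220.3 in p53- Myc+ arrays. Arrays without the label read 208, 252 and 290 in p53- Rb- arrays, against 139, 161 and 132 in p53- arrays. Its interaction was -2.58 ± 0.26 (adjusted p = 7.25e-07) and that of Sfrp2, with means of 413 in p53- Rb- Myc+ against 875 in p53- Myc+ arrays and 71.3 in p53- Rb- against 27.9 in p53- arrays, was -2.05 ± 0.29 (adjusted p = 4.48e-05). Wnt10a, a Wnt ligand, had 94.2, 104 and 98.3 in p53- Rb- Myc+ arrays, against 10.1, 4.47 and 18.2 in p53- Myc+ arrays. Its intensities without the label were 116, 109.6 and 102 in p53- Rb- arrays, against 127, 142 and 95.5 in p53- arrays. Only the p53- Myc+ arrays were low, and the interaction was 2.25 ± 0.28 (adjusted p = 1.33e-05). Of 28 Hox genes 5 were negative and 1 positive (21.4%). Hoxd8 had 45.9, 67.9 and 42.5 in p53- Rb- Myc+ arrays, against 176, 194 and 194 in p53- Myc+ arrays. Its other values were 54.2, 41.5 and 49.3 in p53- Rb- arrays, against 49.6, 22.6 and 39.7 in p53- arrays. It fell by 1.60 ± 0.19 with the Myc+ label only (interaction -1.90 ± 0.27, adjusted p = 5.61e-05). Hoxc6 rose by 1.11 ± 0.17 only without it, with means of 262 in p53- Rb- Myc+ against 263 in p53- Myc+ arrays and 125 in p53- Rb- against 49.4 in p53- arrays (interaction -1.11 ± 0.24, adjusted p = 0.00358).

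**Figure D5:**
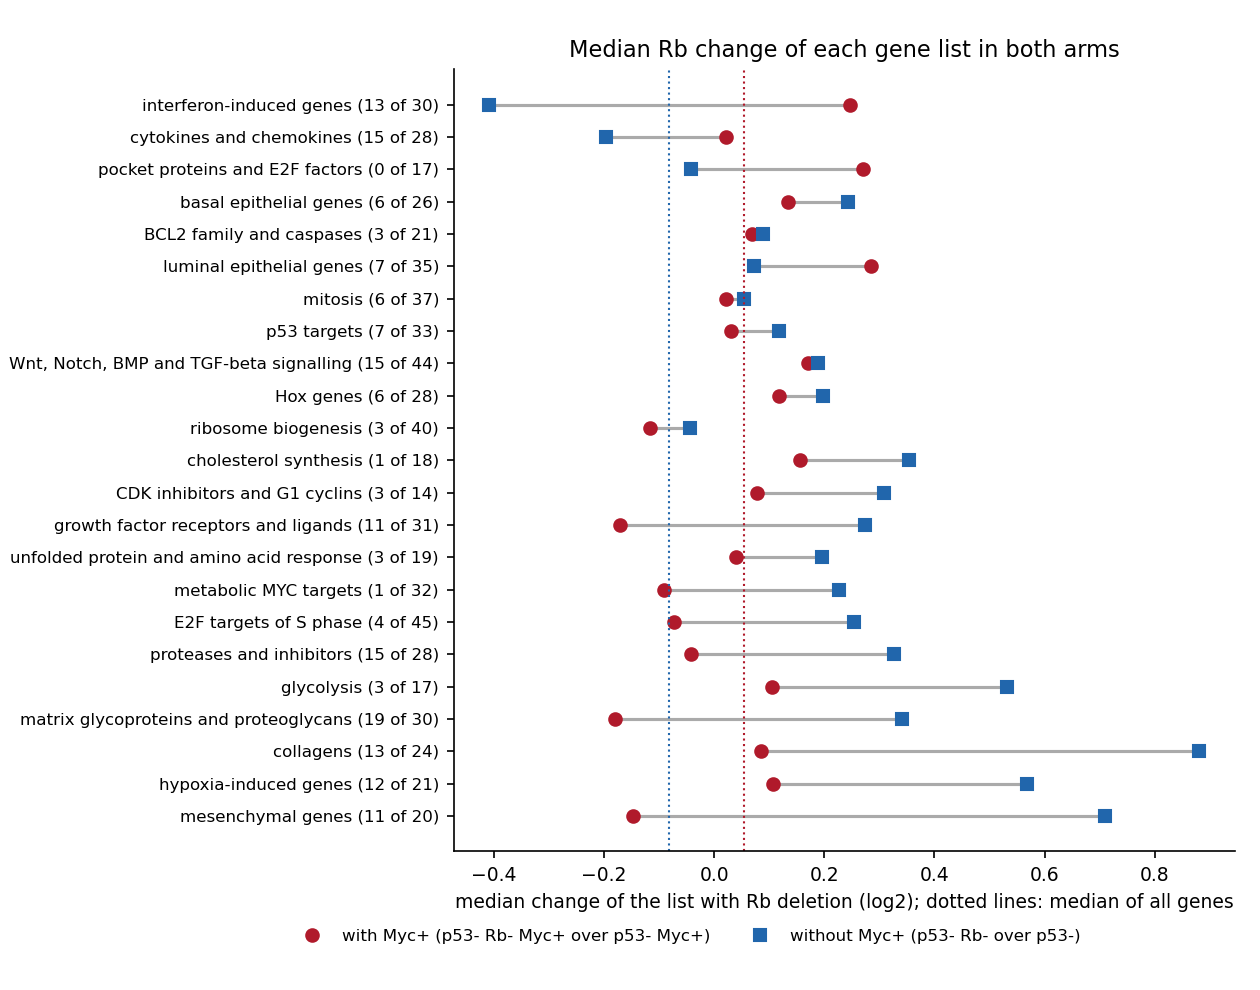
Median log2 Rb change of the measured members of 23 gene lists with the Myc+ label (circles) and without it (squares), with the number of interaction calls of each list in brackets and dotted lines at the medians of all genes (0.0544 with and -0.082 without the label). The circles lie between -0.18 and 0.284, while the squares run from -0.41 for interferon-induced genes to 0.881 for collagens.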

How the data were processed

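RNA was amplified and labelled with the WT-Ovation Pico system, per the labels' protocols. The submitters' processing notes name Affymetrix Expression Console 1.1, and the authors deposited an intensity per probe set. How probes were summarised and whether arrays were centred is not given in the sources used here. Values ran from 4.11e-05 to 8348.1 without negatives, so they were read as linear. Of 35556 probe sets, 21789 had 1 gene symbol, 1621 had several and 12146 were not listed in the platform annotation. The probe set with the highest mean over 15 arrays stood for each of 19938 genes, a choice that mattered for 999. Trp53 was not analysed here.

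Then log2(intensity + 16) was fitted with group means in limma 3.58.1 (R 4.3.3; lmFit, then eBayes, which added 11.78 prior to 10 residual degrees of freedom), with all 15 arrays in 1 fit. Tests were 2-sided, Benjamini-Hochberg adjusted over all genes, and passed under 0.05. Changes and interactions are log2 ± SE. Group means without an error are log2 means converted back to intensities. A gene was opposite, single-arm, same-direction or additive by the calls of both arms and of the interaction, and additive also needed the 95% interval of the interaction inside a 2-fold difference. A floor of 16 and a level of 50 were used to say where a gene had little signal. The procedure was tested on simulated data in which 200 genes were given an interaction. It called 42% of the interactions of 2-fold and 100% of those of 2 on the log2 scale, and 5.96% of its calls were false. A missing call therefore does not show that an interaction of 2-fold or less is absent.

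Genes were named by size within each form, among those that passed without each single array, with a mean of 50 or more in 1 group of each arm and, for single-arm genes, the other arm's interval inside a 2-fold change. Up to 3 members with the smallest interaction p were named from each list, and Rb1 and Myc always. The contrast, the lists and the named genes were chosen with earlier results of these data known. Replicate numbers were checked as pairs: same-number arrays deviated together at r over 0.1 in every pair for p53- Rb- Myc+ with p53- Myc+ (0.102 to 0.379) and in none of the 5 other pairs of groups, and no label ties the numbers, so no block was used. Alternatives covered the added constant, a square root scale, centring, quantile normalization, 12 arrays, a replicate block, array weights, a variance trend, a level filter, the mean of probe sets and each array left out.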

Additional observations from a re-analysis of the deposited data

Results flagged for a closer look

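The Rb change differed between arms by the test of the interaction itself for 2719 genes. Among those whose arms passed with opposite signs and that were measurable in both arms, the largest positive differences were 3.83 for Adgrg2, 3.22 for Socs2, 2.70 for Rnf128 and 2.16 for Ppbp on the log2 scale. The largest negative ones were -5.72 for Mfap4, -5.30 for Slc43a3, -4.58 for Klhl13 and -3.81 for Rarres2. In each of these 8 genes all arrays were parted in both arms, as in 145 of all 147 opposite genes, which must pass in both arms. The causes of these differences were not tested.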

How the results depend on the processing

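In all alternatives, every interaction call shared with the analysis above kept its sign. A sign can hardly turn where both fits pass, so the shared counts say more. Of the 2719 calls, 2160 were shared after centring, 2144 after quantile normalization, 2231 on the square root scale and 1744 without p53- replicate 3. The count of interactions stayed within 1.5 times of 2719 except with array weights (5404) and without p53- replicate 3 (1762) or p53- Rb- Myc+ replicate 2 (1795). Array weights also gave 366 opposite, 4464 single-arm and 317 additive genes, against 147, 2120 and 141. Leaving out each array in turn gave 1762 to 3234 interactions, 95 to 174 opposite genes (95 without p53- Rb- Myc+ replicate 2), 1337 to 2578 single-arm genes (1337 without p53- replicate 3) and 80 to 168 additive genes. The additive count was 73 with 1 added, 84 and 87 without p53- replicates 1 and 3, and 80, 88 and 88 without p53- Rb- Myc+ replicates 1 to 3, and it was 159 on the square root scale, where no fold interval exists and that condition was left out. A replicate block, as if numbers paired the samples, gave 2780 interactions, 2635 of them shared. Between both groups labelled Myc+, the own number gave the highest correlation in 3 of 3 pairs, a hint from the values and not from the design. In the restriction to genes measurable in both arms, added after the data were seen, 162 genes were opposite, 1715 single-arm and 146 additive. Over 87 named genes and 27 alternatives, 86 interaction calls were lost and 26 values turned sign, all of the latter in additive genes near 0. The interaction of Lbp was -0.26 with 64 added, -0.10 after centring, -0.094 after quantile normalization, -0.11 with array weights, -4.05 in square root units and -0.23 to 0.28 without single arrays. That of Stard13 was 0.067 with 1 added, 0.045 with array weights and -0.20 to 0.17 without single arrays. That of Man2a1 was 0.044 after quantile normalization, 0.076 with array weights and -0.16 to 0.13 without single arrays. The causes were not tested. With 3 arrays a group, interactions had a median SE of 0.264, and signal near the floor limits the calls of genes low with the Myc+ label.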
